A study of Mus musculus and Homo sapiens with 20 samples.

Results

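The chromatin of 8 genes that encode alcohol and aldehyde dehydrogenases was examined in mouse hepatocytes by ATAC-seq, an assay in which the transposase Tn5 cuts and tags accessible DNA. The genes were Adh1, Adh4, Adh5 and Adh7 for alcohol dehydrogenases, and Aldh2, Aldh1a1, Aldh1b1 and Aldh3a2 for aldehyde dehydrogenases. Overlapping peaks (by 1 bp or more) of the 12 hepatocyte libraries were joined into regions. A region was assigned to its closest protein-coding gene, by distance to the gene body, up to 50 kb away. Nearness does not show which gene a region acts on. This assignment gave 398 of the 642948 merged regions (mm10). Of these, 81 were listed in all 12 libraries and could be tested, of 101575 such regions in all. Peak positions therefore chose the regions. The 8 genes were picked with earlier results of these data known. Among these results was that an Adh4 region differed with Ad_Cre, so that region is described below without a test.

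The hepatocytes carried a floxed Ahr gene in every group and were labelled 4 weeks, in 4 groups of 3 libraries. The groups were B2_minus with Ad_Cont, control with Ad_Cont, B2_minus with Ad_Cre, and control with Ad_Cre, where B2_minus stands for vitamin B2 (riboflavin) deficiency and the libraries were made from cultured cells, per the labels. The labels do not spell out Ad_Cont and Ad_Cre, which their names give as a control and a Cre treatment. Cre recombinase excises DNA between loxP sites, and AhR, the product of Ahr, is a ligand-activated transcription factor. The labels do not give the age, the strain or whether replicates came from different cultures or animals. The p-values hence reflect only how these libraries vary, which may be technical. A further 8 libraries of the human line HepG2 were not used here.

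Alcohol dehydrogenases oxidize alcohols to aldehydes and aldehyde dehydrogenases oxidize aldehydes to acids, both mostly with NAD+ as the acceptor. In the liver, ADH1 in the cytosol and ALDH2 in mitochondria carry most of the oxidation of ethanol through acetaldehyde to acetate. The same families handle retinol, formaldehyde and the aldehydes of lipid breakdown.

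Start-site sequences are shown for the 6 genes in which a start window, 250 bases before to 50 bases after a listed start, touched a region listed in all 12 libraries, and for Adh7, whose start window was nearly bare although regions beside the gene changed. They are the RefSeq promoters on GRCm38.p6, the assembly of mm10, written 5′ to 3′ on the strand of the gene. Capitals mark matches to GCGTG, the core bound by AhR with ARNT, or to TATAAA, the TATA box, so that a match on the opposite strand reads CACGC or TTTATA.
Adh1 (chr3:138277335-138277634, plus strand): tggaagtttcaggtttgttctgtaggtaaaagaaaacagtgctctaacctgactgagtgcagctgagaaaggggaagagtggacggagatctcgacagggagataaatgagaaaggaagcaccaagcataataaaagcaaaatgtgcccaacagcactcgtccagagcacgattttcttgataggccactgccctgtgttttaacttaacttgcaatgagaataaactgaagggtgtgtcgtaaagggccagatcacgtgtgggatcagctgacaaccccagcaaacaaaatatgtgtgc
Adh4 (chr3:138415247-138415546, plus strand): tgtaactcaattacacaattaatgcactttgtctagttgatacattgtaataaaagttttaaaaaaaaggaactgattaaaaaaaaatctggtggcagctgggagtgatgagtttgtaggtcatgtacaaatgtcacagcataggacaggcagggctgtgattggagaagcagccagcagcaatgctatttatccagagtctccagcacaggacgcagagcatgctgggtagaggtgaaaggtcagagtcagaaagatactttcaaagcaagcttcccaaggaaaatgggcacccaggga
Adh5, the second start (chr3:138442843-138443142, plus strand): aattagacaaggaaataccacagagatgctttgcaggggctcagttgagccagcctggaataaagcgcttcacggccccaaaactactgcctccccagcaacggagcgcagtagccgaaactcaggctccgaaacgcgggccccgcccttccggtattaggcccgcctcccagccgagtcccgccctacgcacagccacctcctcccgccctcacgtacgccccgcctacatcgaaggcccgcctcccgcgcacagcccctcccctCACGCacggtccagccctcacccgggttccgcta
Adh7 (chr3:138217523-138217822, plus strand): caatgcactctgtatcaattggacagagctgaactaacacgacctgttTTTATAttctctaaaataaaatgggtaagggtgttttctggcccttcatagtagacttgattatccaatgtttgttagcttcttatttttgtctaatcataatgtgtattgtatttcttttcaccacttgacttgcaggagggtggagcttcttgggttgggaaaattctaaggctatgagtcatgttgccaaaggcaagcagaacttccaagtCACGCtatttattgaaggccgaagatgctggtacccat
Aldh1a1, the second start (chr19:20601718-20602017, plus strand): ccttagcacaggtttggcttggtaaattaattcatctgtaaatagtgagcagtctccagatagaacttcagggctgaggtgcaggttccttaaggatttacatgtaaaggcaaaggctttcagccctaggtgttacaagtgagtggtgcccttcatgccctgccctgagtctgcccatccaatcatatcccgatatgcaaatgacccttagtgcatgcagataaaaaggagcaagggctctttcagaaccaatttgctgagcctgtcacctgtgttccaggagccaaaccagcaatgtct
Aldh1b1 (chr4:45798772-45799071, plus strand): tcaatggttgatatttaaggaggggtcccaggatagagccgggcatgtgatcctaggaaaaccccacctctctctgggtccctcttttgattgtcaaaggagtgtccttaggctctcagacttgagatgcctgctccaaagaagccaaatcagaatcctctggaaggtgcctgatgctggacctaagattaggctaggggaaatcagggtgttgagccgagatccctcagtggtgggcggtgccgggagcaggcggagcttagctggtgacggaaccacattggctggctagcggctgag
Aldh3a2 (chr11:61267137-61267436, minus strand): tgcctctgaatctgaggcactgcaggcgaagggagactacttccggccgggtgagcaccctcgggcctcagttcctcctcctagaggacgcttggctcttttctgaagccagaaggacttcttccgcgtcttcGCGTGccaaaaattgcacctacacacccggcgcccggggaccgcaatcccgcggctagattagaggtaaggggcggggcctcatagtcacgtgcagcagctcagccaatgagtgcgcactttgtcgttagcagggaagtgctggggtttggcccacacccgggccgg

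Promoters were matched for 7 of the 8 genes, with 9 start windows in all. GCGTG was present in 3 of the 9 windows, those of Adh5 at the second start, Adh7 and Aldh3a2, and in 32.4% of all 32851 promoters. It lay 16 to 20 bases downstream of the start in Adh5 on the minus strand, 12 to 16 bases downstream in Adh7 on the minus strand, and from -117 to -113 relative to the start in Aldh3a2 on the strand of the gene. TATAAA was present in 2 of the 9 windows, at the first start of Adh5 and in Adh7, and in 13.6% of all promoters. It lay from -207 to -202 relative to the first start in Adh5, on the plus strand. In Adh7 it lay from -202 to -197, on the minus strand. These are matches of letters, and whether they act as a TATA box was not tested. The letters CAAAGTCCA (HNF4A), the HNF1 motif and TTGCGCAA (C/EBP) were in 0 of the 9 windows and in 0.475%, 0.00913% and 0.183% of all promoters. Both strands were searched, and 0 matches overlapped in the 9 windows. Bases G and C made up 65.0% of the Adh5 window at the second start and 61.7% of the Aldh3a2 window, against 45.3% for Adh1, 42.3% for Adh4 and 39.3% for Adh7, with a median of 52.7% over all promoters.

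Values below are scaled tags, the count of the highest peak of a library in a region scaled for library size by TMM, edgeR's trimmed-mean method. Since 99.998% of peaks were 200 bp wide, each value refers to a peak of that length. A wide joined region, such as that on the Adh4 start, can hold several peaks. There the highest peak may lie at different places in different libraries. The lists held 200698 to 281141 peaks and 3897632 to 5557678 tags per library after filtering, and nothing below 6 to 8 tags was listed, so a region missing from a list has no value rather than a value of 0. Fewer accessible cells and less signal per cell cannot be told apart in such bulk libraries.

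The regions were unevenly spread over the genes. Aldh1a1 had 135 regions, of which 25 were listed in every library, and Adh7 had 46 and 15. Aldh3a2 had 61 and 10, Aldh2 51 and 10, Adh1 27 and 10, Aldh1b1 35 and 5, Adh5 23 and 4, and Adh4 20 and 2. The share listed in all 12 libraries was 20.35% over the 8 genes, against 15.8% of all merged regions. Of the 398 regions 252 touched a gene body and 146 lay outside, 148 were listed in 1 library only and 169 in 2 to 11 libraries. The tested regions averaged from 8.895 scaled tags at the Adh4 start to 91.02 at the second start of Adh5, with a median of 20.4.

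B2_minus hepatocytes differed from control hepatocytes at 8 of the 81 tested regions. Averaged over both Ad arms, 7 regions rose and 1 fell in B2_minus by edgeR's quasi-likelihood test (Benjamini-Hochberg adjusted p under 0.05 over all 101575 regions). As run, the test let the variance fall below Poisson, the spread of independent counts. Its SEs and p-values can therefore be smaller than counting alone would allow. The rises lay in or near Aldh1a1 with 3, Adh7 with 2, Aldh1b1 with 1 and Aldh3a2 with 1, and the fall lay in Adh5. Adh1, Adh4 and Aldh2 had 0 regions past the threshold in this contrast. The 8 calls are 9.877% of the tested regions of these genes, against 5.78% of all regions (2.45% higher and 3.33% lower). The median log2 fold change was 0.09 with 55 of 81 regions positive (67.9%), against 0.00 and 51.15% over all regions. The 8 genes and the averaged contrast were chosen with earlier results of these data known, so these shares are a description. With library sizes taken from the listed tags, the median of all regions shifted upward by 0.10 and that of the 81 regions was 0.18.

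None of the 8 calls passed under 3 of the alternative treatments of the counts, and this limit applies to each of these regions where it is described below. With edgeR bounded at Poisson variance their adjusted p was 0.136 to 0.376, with the sum of a library's peaks in place of its highest peak 0.0623 to 0.292, and with DESeq2 0.615 to 0.909, where 1 was NA. Of the 8, limma kept 6, edgeR with DESeq2 size factors 7, with library sizes from listed tags 7, and with a peak required in at least 3 libraries 3. No direction reversed under any of these.

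**Figure D1:**
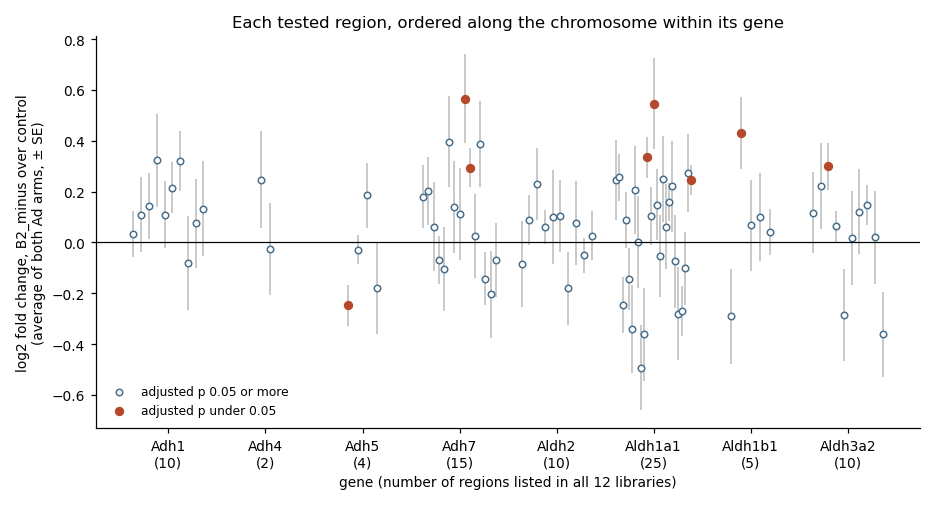
Averaged log2 fold change, B2_minus over control, of each of the 81 tested regions, with its SE (vertical bars), grouped by gene along the x axis. Filled points are the 8 regions past the threshold, of which 7 lie above 0 and 1, in Adh5, lies below.

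Adh1 encodes the main alcohol dehydrogenase of the liver. None of its 10 tested regions passed the threshold in a B2_minus against control contrast, and 9 of the 10 were higher in B2_minus by value, with a median log2 fold change of 0.12. Its strongest region, 16541 bp upstream of the start (chr3:138260768-138261044), held 43.01, 43.7 and 46.3 scaled tags in B2_minus Ad_Cont libraries, against 40.9, 45.8 and 43.2 in control Ad_Cont libraries. With Ad_Cre it held 47.98, 49.8 and 47.2 scaled tags in B2_minus Ad_Cre libraries, against 43.01, 50.7 and 47.3 in control Ad_Cre libraries. The groups overlapped in both arms (log2 fold change 0.03, SE 0.0897, edgeR adjusted p 0.891, averaged).

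The region on the Adh1 start (chr3:138277498-138277775), which covers the 3′ part of the window printed above, was outside the naming rule and is given because its sequence is shown. It held 43.01, 23.5 and 31.6 scaled tags in B2_minus Ad_Cont libraries, against 27.6, 32.9 and 28.1 in control Ad_Cont libraries. In the Ad_Cre arm it held 42.8, 36.4 and 43.5 scaled tags in B2_minus Ad_Cre libraries, against 35.3, 29.8 and 24.5 in control Ad_Cre libraries. With Ad_Cre the groups did not overlap and with Ad_Cont they did, and the averaged difference did not pass (log2 fold change 0.32, SE 0.117, edgeR adjusted p 0.0839).

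Just upstream, 315 bp before the start, lay the strongest region at that end of Adh1 (chr3:138277006-138277270). It held 47.5, 44.8 and 43.1 scaled tags in B2_minus Ad_Cont libraries, against 39.8, 32.9 and 38.9 in control Ad_Cont libraries, without overlap. The Ad_Cre arm gave 44.9, 40.2 and 39.9 scaled tags in B2_minus Ad_Cre libraries, against 43.01, 38.8 and 32.4 in control Ad_Cre libraries, with overlap, and the averaged difference did not pass either (log2 fold change 0.22, SE 0.0987, edgeR adjusted p 0.197). The Adh1 region with the largest averaged difference was a weak one 4329 bp upstream (chr3:138272521-138273256), at 11.8 ± 2.38 in B2_minus and 9.92 ± 2.67 in control with Ad_Cont, and 13.5 ± 3.47 and 10.5 ± 0.777 with Ad_Cre (SD, n = 3 each; log2 fold change 0.32, SE 0.183, edgeR adjusted p 0.322).

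Adh4 encodes another liver alcohol dehydrogenase, which also acts on retinol. It had 2 regions listed in all libraries, both weak. The region 5814 bp upstream of the gene (chr3:138408855-138409642), the one known beforehand, held 21.9, 13.4 and 15.4 scaled tags in B2_minus Ad_Cre libraries, against 7.72, 7.95 and 8.76 in control Ad_Cre libraries. With Ad_Cont it held 7.17, 9.59 and 10.5 scaled tags in B2_minus Ad_Cont libraries, against 17.7, 11.95 and 9.72 in control Ad_Cont libraries. All 3 B2_minus libraries were higher than the control libraries with Ad_Cre, by a log2 fold change of 1.03, while with Ad_Cont the groups overlapped and the log2 fold change was -0.54. With the sum of a library's peaks in place of its highest peak the Ad_Cre log2 fold change was 0.59, under the other alternatives it was 0.94 to 1.17, and leaving out 1 library it was 0.82 to 1.17. Over all regions 1.13% were called with Ad_Cre (0.354% higher). Of the 81 regions the Adh4 region was the 1 so counted, a count that the choice of genes fixed and from which nothing is read.

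The Adh4 start itself (chr3:138414854-138415867) was weak. It held 8.06, 7.46 and 10.5 scaled tags in B2_minus Ad_Cont libraries, against 8.84, 9.95 and 8.64 in control Ad_Cont libraries. Under Ad_Cre the region held 7.30, 9.58 and 9.97 scaled tags in B2_minus Ad_Cre libraries, against 8.82, 7.95 and 9.64 in control Ad_Cre libraries. The groups overlapped in both arms (log2 fold change -0.03, SE 0.181, edgeR adjusted p 0.958, averaged), and values this close to the lowest listed count may have understated SDs.

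Adh5 encodes the alcohol dehydrogenase that oxidizes the glutathione adduct of formaldehyde and reduces S-nitrosoglutathione. Its listed starts differed. The first had 0 regions in any library, while the second carried the strongest region of all 8 genes (chr3:138442922-138443218). It held 88.7, 82.1 and 87.3 scaled tags in B2_minus Ad_Cont libraries, against 98.4, 93.6 and 87.5 in control Ad_Cont libraries. With Ad_Cre it held 94.9, 91.95 and 95.2 scaled tags in B2_minus Ad_Cre libraries, against 91.5, 94.5 and 86.7 in control Ad_Cre libraries. The groups overlapped with Ad_Cont and with Ad_Cre, and the averaged difference did not pass (log2 fold change -0.03, SE 0.0570, edgeR adjusted p 0.831).

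The neighbouring region of Adh5, ending at -207 bp from the second start (chr3:138442598-138442886) and reaching into the first bases of the window printed above, fell in B2_minus. It held 49.3, 53.3 and 50.5 scaled tags in B2_minus Ad_Cont libraries, against 62.99, 51.8 and 58.3 in control Ad_Cont libraries. In the Ad_Cre arm it held 56.3, 44.1 and 48.1 scaled tags in B2_minus Ad_Cre libraries, against 56.2, 65.6 and 62.2 in control Ad_Cre libraries. The groups overlapped in both arms, and only the average passed (log2 fold change -0.25, SE 0.0807, edgeR adjusted p 0.04601). The call held in 4 of 12 fits that each left out 1 library, those without B2_minus Ad_Cont replicate 2, control Ad_Cont replicate 2, B2_minus Ad_Cre replicate 1 or control Ad_Cre replicate 1. In the other 8 fits the adjusted p was 0.0707 to 0.135. With a peak required in at least 3 libraries the log2 fold change was -0.13 (edgeR adjusted p 0.303) and with library sizes from listed tags -0.15 (0.237). A weaker region 944 bp before the end of Adh5 (chr3:138454298-138454555) had 28.4 ± 1.34 in B2_minus and 25.3 ± 2.24 in control with Ad_Cont, and 29.7 ± 4.13 and 25.5 ± 1.296 with Ad_Cre (SD, n = 3 each; log2 fold change 0.18, SE 0.129, edgeR adjusted p 0.449).

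Adh7 encodes an alcohol dehydrogenase with high activity on retinol that is best known from the stomach. Its listed start, the AhR core and TATA letters of which are shown above, had a region in 2 libraries only, both B2_minus, at 8.53 and 6.70 scaled tags. The region 6029 bp downstream of the gene (chr3:138238071-138238342), the strongest of the gene, rose in B2_minus. It held 58.2, 56.5 and 65.2 scaled tags in B2_minus Ad_Cont libraries, against 47.5, 53.8 and 45.4 in control Ad_Cont libraries. The Ad_Cre arm gave 69.9, 65.1 and 67.1 scaled tags in B2_minus Ad_Cre libraries, against 48.5, 56.7 and 57.8 in control Ad_Cre libraries. The groups did not overlap in either arm, and the averaged difference passed (log2 fold change 0.29, SE 0.0778, edgeR adjusted p 0.0101). The call held in all 12 fits that left out 1 library, with an adjusted p of 0.00755 to 0.0454.

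Closer to the gene, a weaker Adh7 region 4405 bp downstream (chr3:138236447-138236814) rose as well. It held 24.2, 29.9 and 19.99 scaled tags in B2_minus Ad_Cont libraries, against 14.4, 14.9 and 9.72 in control Ad_Cont libraries, without overlap. Under Ad_Cre the region held 10.4, 17.2 and 16.3 scaled tags in B2_minus Ad_Cre libraries, against 14.3, 9.94 and 14.02 in control Ad_Cre libraries, with overlap. It was the 1 region of the 8 genes past the threshold with Ad_Cont, where 1.04% of all regions were, 0.423% being higher (log2 fold change 0.92, SE 0.234, edgeR adjusted p 0.02597). That call was lost without B2_minus Ad_Cont replicate 1 (adjusted p 0.0822), B2_minus Ad_Cont replicate 2 (0.142), control Ad_Cont replicate 1 (0.0571) or control Ad_Cont replicate 3 (0.184).

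Averaged over both arms the same region also passed (log2 fold change 0.57, SE 0.176, edgeR adjusted p 0.0347). The averaged call was lost without B2_minus Ad_Cont replicate 2 (0.0941), control Ad_Cont replicate 3 (0.119), B2_minus Ad_Cre replicate 2 (0.115), B2_minus Ad_Cre replicate 3 (0.0979) or control Ad_Cre replicate 2 (0.106). With Ad_Cre alone the log2 fold change was 0.21 (edgeR adjusted p 0.789), and the difference between the arms did not pass (log2 fold change -0.70, edgeR adjusted p 0.963). At the ends of the Adh7 body, the upstream end (chr3:138198221-138198470) averaged 30.2 and the downstream end (chr3:138231068-138231434) 13.2 scaled tags. Neither passed (averaged log2 fold changes 0.18 and 0.11, edgeR adjusted p 0.445 and 0.794).

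**Figure D2:**
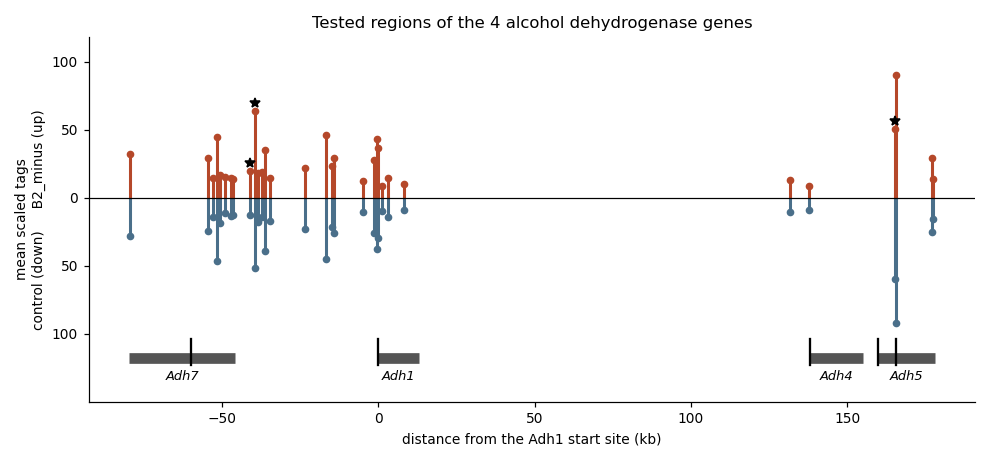
Mean scaled tags of the tested regions of Adh7, Adh1, Adh4 and Adh5 by distance from the Adh1 start in kb, with the 6 B2_minus libraries upward and the 6 control libraries downward. Grey bars are gene bodies, black ticks listed starts and stars the 3 regions past the threshold in the averaged contrast, of which the pair beside Adh7 was higher and the one in Adh5 lower in B2_minus.

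Aldh2 encodes the mitochondrial enzyme that removes acetaldehyde. None of its 10 tested regions passed in any B2_minus against control contrast. The strongest (chr5:121584225-121584487), inside the gene, held 74.4, 75.7 and 70.5 scaled tags in B2_minus Ad_Cont libraries, against 71.8, 71.7 and 76.7 in control Ad_Cont libraries. With Ad_Cre it held 73.01, 75.7 and 77.1 scaled tags in B2_minus Ad_Cre libraries, against 71.7, 63.6 and 72.7 in control Ad_Cre libraries, and the averaged difference did not pass (log2 fold change 0.06, SE 0.0658, edgeR adjusted p 0.666). The groups overlapped with Ad_Cont and not with Ad_Cre.

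The Aldh2 region 48 bp from an end of the gene (chr5:121593452-121593776) held 64.5, 81.02 and 74.7 scaled tags in B2_minus Ad_Cont libraries, against 72.9, 73.7 and 68.02 in control Ad_Cont libraries. In the Ad_Cre arm it held 66.8, 68.96 and 61.7 scaled tags in B2_minus Ad_Cre libraries, against 73.9, 74.6 and 67.5 in control Ad_Cre libraries. The groups overlapped in both arms (log2 fold change -0.05, SE 0.0682, edgeR adjusted p 0.744, averaged). The opposite end of Aldh2 (chr5:121566145-121566390) averaged 41.4 scaled tags (log2 fold change 0.09, SE 0.0976, edgeR adjusted p 0.672). The largest averaged difference among its regions, at chr5:121581994-121582303 inside the gene, was a log2 fold change of 0.23 (SE 0.142, edgeR adjusted p 0.382).

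Aldh1a1 encodes the cytosolic enzyme that makes retinoic acid from retinaldehyde. It had the most regions and the most calls, 3 of 25, all rises. At its first listed start a region was listed in 1 library, at 6.35 scaled tags, and a region ending at -319 bp from that start in 11 libraries. At the second start a region was listed in all 12. The region on the second start (chr19:20601748-20602096), outside the naming rule and given for the sequence above, held 65.4, 67.2 and 70.5 scaled tags in B2_minus Ad_Cont libraries, against 59.7, 55.8 and 58.3 in control Ad_Cont libraries, without overlap. The Ad_Cre arm gave 63.6, 57.5 and 59.9 scaled tags in B2_minus Ad_Cre libraries, against 61.8, 47.7 and 59.6 in control Ad_Cre libraries, with overlap, and the averaged difference did not pass (log2 fold change 0.16, SE 0.0752, edgeR adjusted p 0.2097).

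The strongest Aldh1a1 region lay 10758 bp past the end of the gene (chr19:20654221-20654513) and rose in B2_minus. It held 99.5, 111 and 84.2 scaled tags in B2_minus Ad_Cont libraries, against 95.03, 78.6 and 80.97 in control Ad_Cont libraries, where 1 control library lay inside the B2_minus range. Under Ad_Cre the region held 88.7, 89.1 and 93.4 scaled tags in B2_minus Ad_Cre libraries, against 77.2, 76.6 and 70.97 in control Ad_Cre libraries, without overlap. The averaged difference passed (log2 fold change 0.25, SE 0.0607, edgeR adjusted p 0.00522), and it held in all 12 fits that left out 1 library, with an adjusted p of 0.00138 to 0.0416.

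Inside Aldh1a1, 37358 bp downstream of the first start, a region (chr19:20529941-20530172) rose with the lowest adjusted p of the 8 genes. It held 58.2, 70.4 and 58.9 scaled tags in B2_minus Ad_Cont libraries, against 43.1, 54.8 and 51.8 in control Ad_Cont libraries. With Ad_Cre it held 64.7, 61.3 and 54.4 scaled tags in B2_minus Ad_Cre libraries, against 39.7, 49.7 and 49.9 in control Ad_Cre libraries. The groups did not overlap in either arm (log2 fold change 0.33, SE 0.0818, edgeR adjusted p 0.004695, averaged). The call held in all 12 fits that left out 1 library, with an adjusted p of 0.00376 to 0.0292.

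A weak Aldh1a1 region 47452 bp downstream of the first start (chr19:20540035-20540705) rose as well. It held 16.1, 19.2 and 13.7 scaled tags in B2_minus Ad_Cont libraries, against 11.1, 9.95 and 12.96 in control Ad_Cont libraries. In the Ad_Cre arm it held 16.7, 14.4 and 15.4 scaled tags in B2_minus Ad_Cre libraries, against 7.72, 12.9 and 10.5 in control Ad_Cre libraries. Here all 6 B2_minus libraries were above all 6 control libraries, the 1 such region of the 81, against 0.898% of all regions, and 0 of the 81 had all 6 below, against 1.33%. The 7.72 of control Ad_Cre replicate 1 lay near the lowest count listed in that library, 7 tags. This joined region is wide enough to hold several peaks, so the highest peak may lie at different places in different libraries. The averaged difference passed narrowly (log2 fold change 0.55, SE 0.179, edgeR adjusted p 0.0472). The call held in 2 of 12 fits that left out 1 library, those without B2_minus Ad_Cont replicate 3 or control Ad_Cre replicate 2, and in the other 10 the adjusted p was 0.0519 to 0.133. Elsewhere in Aldh1a1 the averaged log2 fold changes reached -0.49, so the regions of the gene did not share a direction, with 15 above 0 and 10 below. Aldh1a1 has a close relative in Aldh1a7, and how reads matching both were placed is not given in the sources used here.

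**Figure D3:**
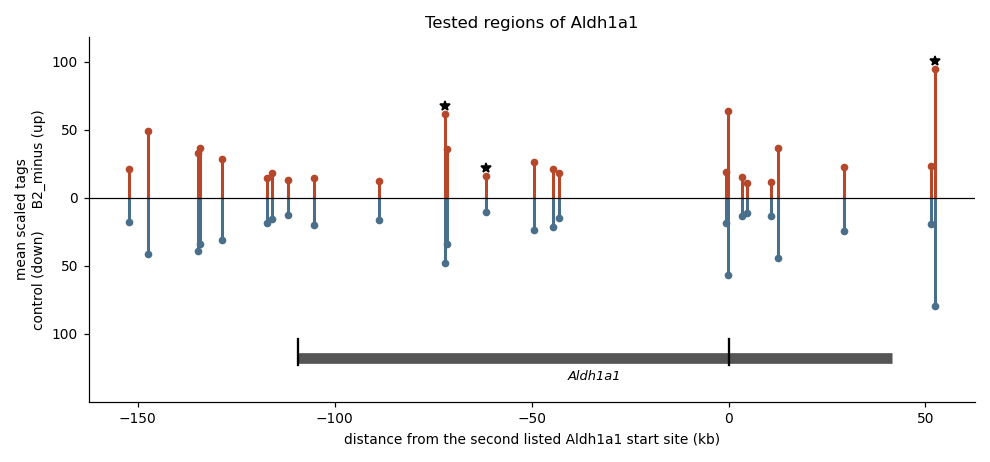
Mean scaled tags of the 25 tested regions of Aldh1a1 by distance from the second listed start in kb, with the 6 B2_minus libraries upward and the 6 control libraries downward. The grey bar is the gene body, black ticks are listed starts, and stars mark the 3 regions past the threshold in the averaged contrast, all higher in B2_minus and none on a start.

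Aldh1b1 encodes a mitochondrial aldehyde dehydrogenase related to ALDH2. Its strongest region lay on the start (chr4:45798889-45799152) and did not differ beyond its error. It held 50.2, 39.4 and 55.8 scaled tags in B2_minus Ad_Cont libraries, against 56.4, 50.8 and 43.2 in control Ad_Cont libraries. The Ad_Cre arm gave 46.9, 39.3 and 58.03 scaled tags in B2_minus Ad_Cre libraries, against 41.9, 43.8 and 46.4 in control Ad_Cre libraries. The groups overlapped in both arms (log2 fold change 0.04, SE 0.09097, edgeR adjusted p 0.852, averaged).

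A region 29502 bp upstream of Aldh1b1 (chr4:45769190-45769520) rose in B2_minus at the edge of the threshold. It held 27.8, 26.7 and 32.6 scaled tags in B2_minus Ad_Cont libraries, against 28.7, 19.9 and 19.4 in control Ad_Cont libraries. Under Ad_Cre the region held 19.8, 35.4 and 26.3 scaled tags in B2_minus Ad_Cre libraries, against 17.6, 17.9 and 21.9 in control Ad_Cre libraries. The groups overlapped in both arms (log2 fold change 0.43, SE 0.142, edgeR adjusted p 0.0499, averaged). The call held in 3 of 12 fits that left out 1 library, those without control Ad_Cont replicate 1, B2_minus Ad_Cre replicate 1 or control Ad_Cre replicate 3, and in the other 9 the adjusted p was 0.0511 to 0.254. It was also lost with DESeq2 size factors (edgeR adjusted p 0.0515) and with limma (adjusted p 0.0672).

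Aldh3a2 encodes the membrane-bound fatty aldehyde dehydrogenase, which oxidizes long-chain aldehydes of lipid metabolism. Its strongest region covered the start (chr11:61267008-61267295). It held 81.5, 77.8 and 77.9 scaled tags in B2_minus Ad_Cont libraries, against 79.6, 79.6 and 77.7 in control Ad_Cont libraries. With Ad_Cre it held 83.4, 81.4 and 93.4 scaled tags in B2_minus Ad_Cre libraries, against 79.4, 77.6 and 80.6 in control Ad_Cre libraries, without overlap. The averaged difference did not pass (log2 fold change 0.06, SE 0.0615, edgeR adjusted p 0.622). The GCGTG of its window, at the bases before the start given above, lay just upstream of this region.

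On the other side of the Aldh3a2 start, 207 bp into the gene, a region (chr11:61266590-61266979) rose in B2_minus. It held 43.01, 50.1 and 51.6 scaled tags in B2_minus Ad_Cont libraries, against 34.3, 42.8 and 37.8 in control Ad_Cont libraries, without overlap by a margin under 1 scaled tag. In the Ad_Cre arm it held 42.8, 58.4 and 50.8 scaled tags in B2_minus Ad_Cre libraries, against 38.6, 37.8 and 48.2 in control Ad_Cre libraries, with overlap. The averaged difference passed (log2 fold change 0.30, SE 0.0939, edgeR adjusted p 0.0370). The call held in 4 of 12 fits that left out 1 library, those without B2_minus Ad_Cont replicate 1, control Ad_Cont replicate 2, B2_minus Ad_Cre replicate 1 or control Ad_Cre replicate 3, and in the other 8 the adjusted p was 0.0628 to 0.159. The largest averaged difference of Aldh3a2 was a lower value 16183 bp outside the gene (chr11:61283711-61284022), at 14.5 ± 2.23 in B2_minus and 22.6 ± 0.856 in control with Ad_Cont, and 18.5 ± 5.58 and 19.5 ± 8.64 with Ad_Cre (SD, n = 3 each), without overlap with Ad_Cont, and the average did not pass (log2 fold change -0.36, SE 0.167, edgeR adjusted p 0.204).

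**Figure D4:**
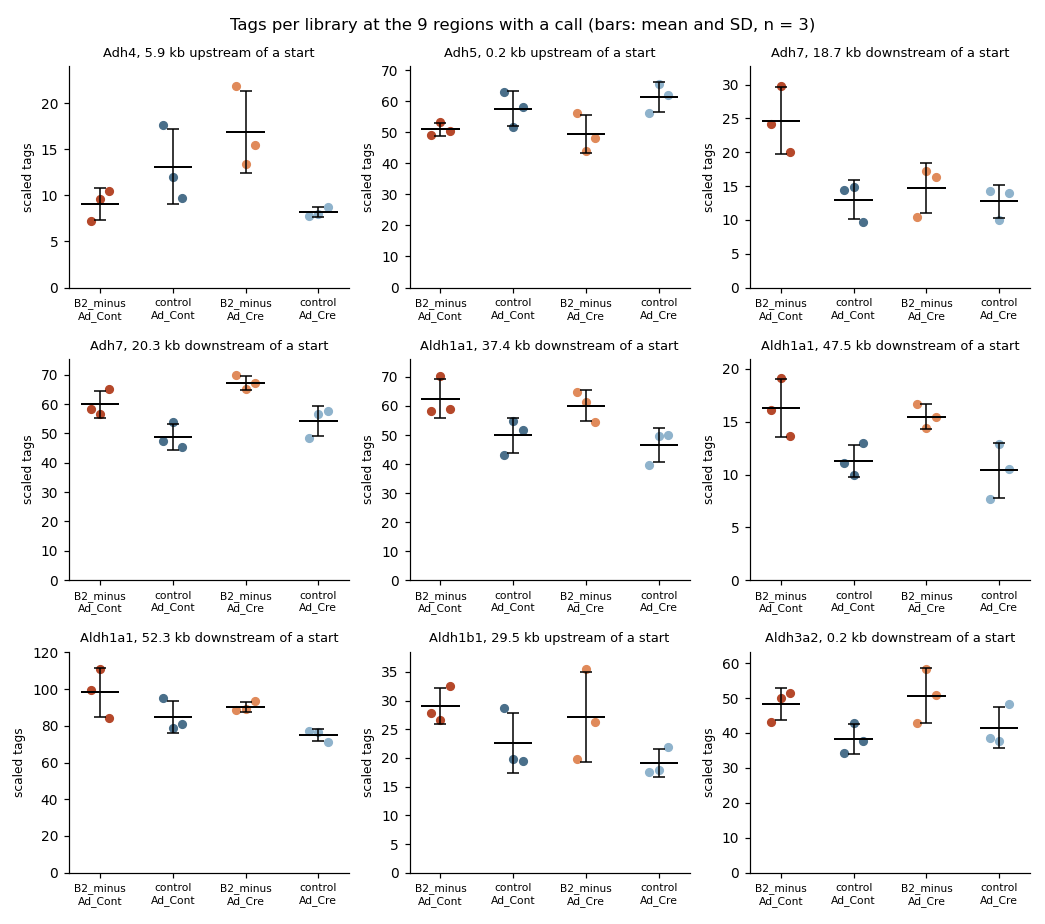
Scaled tags of each library (points) with the mean and SD of each group of 3 at the 8 regions past the threshold in the averaged B2_minus against control contrast and at the Adh4 region known beforehand, each panel from 0. B2_minus stands left of control within each Ad arm, and only the Adh5 panel has lower B2_minus means in both arms.

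By position, 4 of the 8 called regions lay inside a gene body, as did 47 of the 81 tested, and 4 lay outside, as did 34. Of the 7 tested regions that touched a start window, 1 was called, the one in Adh5. Of the strongest regions of the 8 genes, 2 were called, those of Adh7 and Aldh1a1. The called regions averaged 13.4 to 87.1 scaled tags. Per arm, B2_minus and control libraries did not overlap at 14 regions higher and 6 lower with Ad_Cont, where 17.3% of all regions did not overlap (8.64% higher and 8.63% lower). With Ad_Cre there were 13 higher and 3 lower, where 17.5% of all regions did not overlap (8.54% higher and 8.95% lower). The 13 include the Adh4 region known beforehand, whose place among them the choice of genes fixed, so these counts are a description.

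Summed over its tested regions, each gene has 1 value per library. The sums of the regions nearest to Adh1 and Adh7 rose in B2_minus (2 of 8 genes). Of 16872 genes with a tested region, 11.2% passed in the average (5.14% higher). Adh1 held 257, 256 and 267 scaled tags in B2_minus Ad_Cre libraries, against 242, 229 and 203 in control Ad_Cre libraries, without overlap. With Ad_Cont Adh1 held 256, 245 and 232 scaled tags in B2_minus Ad_Cont libraries, against 237, 239 and 227 in control Ad_Cont libraries, with overlap. It passed with Ad_Cre (log2 fold change 0.22, SE 0.0561, edgeR adjusted p 0.0107), where 3.94% of genes passed (1.46% higher), and in the average (log2 fold change 0.14, SE 0.0403, edgeR adjusted p 0.0114). None of the gene calls held under the 3 treatments that removed the region calls, with an adjusted p of 0.14 to 0.222 with edgeR bounded at Poisson variance, 0.0592 to 0.453 with summed peaks and 0.522 to 0.824 with DESeq2, which were run on gene sums after seeing the data. For Adh7 the log2 fold change with summed peaks was 0.06. The difference of Adh1 between the arms did not pass (log2 fold change 0.16, edgeR adjusted p 0.947).

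Library control Ad_Cre replicate 3 held the lowest Adh1 sum, and without it neither Adh1 call held (log2 fold change 0.15 and adjusted p 0.24 with Ad_Cre, 0.10 and 0.107 in the average). The Ad_Cre call was also lost without B2_minus Ad_Cre replicate 3 (adjusted p 0.0777), and the averaged one without B2_minus Ad_Cont replicate 1 (0.0593).

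Adh7 summed to 383, 343 and 385 scaled tags in B2_minus Ad_Cont libraries, against 338, 384 and 328 in control Ad_Cont libraries. With Ad_Cre Adh7 summed to 362, 370.3 and 385 scaled tags in B2_minus Ad_Cre libraries, against 334, 353 and 339 in control Ad_Cre libraries, without overlap. The averaged difference passed (log2 fold change 0.10, SE 0.0343, edgeR adjusted p 0.0352). It held in 4 of 12 fits that left out 1 library, those without B2_minus Ad_Cont replicate 2, control Ad_Cont replicate 2, B2_minus Ad_Cre replicate 1 or control Ad_Cre replicate 2, and in the other 8 the adjusted p was 0.051 to 0.158.

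The other 6 sums did not pass, in either arm or averaged, and with Ad_Cont 0 of 8 passed, where 3.37% of genes did. Among them the Adh4 sum is given as a description only, because its larger region was known beforehand. Aldh1a1 averaged 732 ± 32.5 in B2_minus and 692 ± 25.3 in control with Ad_Cont, and 697 ± 16.7 and 675 ± 6.66 with Ad_Cre (SD, n = 3 each), with an averaged log2 fold change of 0.07 (edgeR adjusted p 0.0697). The averaged log2 fold change was 0.08 for Aldh3a2, 0.10 for Aldh1b1, 0.13 for Adh4 and 0.03 for Aldh2. Adh5 was the 1 gene below 0, at -0.08, and with library sizes from listed tags its value was 0.02. Sums of Adh4 rest on 2 regions, which held 17.7 ± 2.88 in B2_minus and 22.3 ± 4.09 in control with Ad_Cont, and 25.8 ± 3.06 and 16.97 ± 1.34 with Ad_Cre (SD, n = 3 each).

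**Figure D5:**
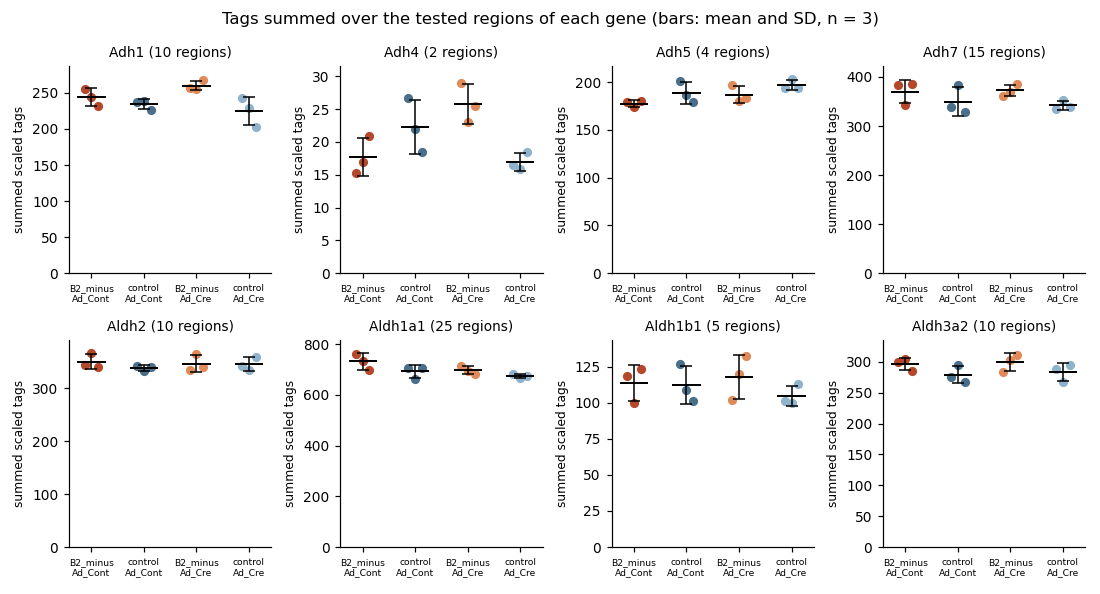
Scaled tags summed over the tested regions of each gene for each library (points), with the mean and SD of each group of 3, each panel from 0. B2_minus stands left of control within each Ad arm, and the Adh1 and Adh7 libraries of the Ad_Cre arm do not overlap between B2_minus and control.

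Between Ad_Cre and Ad_Cont hepatocytes, 0 of the 81 regions passed the threshold in control, in B2_minus or in the average of both, where 0.00591%, 0.00197% and 0.0955% of all regions passed. At an unadjusted p under 0.05 there were 5, 7 and 8 of the 81 regions by edgeR (6.17%, 8.64% and 9.88%), against 7.82%, 7.29% and 9.87% of all regions, and limma, DESeq2 and the bounded edgeR test called 0 as well. The interaction of B2 state and Ad called 0, as it did over all regions, with 5 of 81 at an unadjusted p under 0.05 (6.17%), against 5.14% of all regions. The Adh4 region known beforehand was not set aside from these counts at an unadjusted p, so they are a description. Of the gene sums, 0 of 8 passed in the averaged Ad contrast, where 0.338% of genes did. Over the 81 regions the log2 fold change of Ad_Cre over Ad_Cont ran from -0.73 at the Adh7 region 4405 bp downstream of that gene to 0.90 at the Adh4 region known beforehand in B2_minus. In control it ran from -0.67 at the same Adh4 region to 0.63 at a region inside Aldh2. The Adh4 sum had log2 fold changes of 0.55 in B2_minus and -0.39 in control, given as a description because its larger region was known beforehand.

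Ahr itself had 58 merged regions, of which 9 were tested and 0 passed in an Ad contrast (lowest edgeR adjusted p 0.222). Their sums were 253.0 to 265 with B2_minus Ad_Cre and 270.4 to 278 with B2_minus Ad_Cont, and 244 to 279 with control Ad_Cre and 249 to 265 with control Ad_Cont. The gene table gave no exons, so the deleted part was not located, and these values check nothing about the deletion.

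Of the 317 regions not listed in all 12 libraries, 0 were listed in all 6 libraries of one B2 state and in 0 of the other. The largest difference was 4 libraries, at 2 regions listed more often in B2_minus and 5 listed more often in control. The share of all partly listed regions with such differences was not counted, so nothing particular to these genes is read from these counts. The pair listed more often in B2_minus were an Adh5 region 1543 bp downstream of the second start, listed in 5 B2_minus and 1 control libraries, and an Aldh1a1 region 35632 bp downstream of its second start, listed in 6 and 2. Listed more often in control were 2 further Aldh1a1 regions inside the gene, listed in 0 B2_minus and 4 control libraries and in 2 and 6. An Aldh1b1 region 10858 bp upstream was listed in 1 and 5, and a pair of Aldh3a2 regions in 0 and 4 and in 1 and 5. Libraries differed in how much they listed: of the 398 regions, 158 to 170 were listed in B2_minus Ad_Cont and 147 to 179 in control Ad_Cont libraries, and 162 to 171 in B2_minus Ad_Cre and 165 to 196 in control Ad_Cre libraries. The part of these differences in the listing of single regions was not tested.

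Lists of related genes were read the same way, by the averaged B2_minus against control contrast. Their calls rest on the same test, which let the variance fall below Poisson, and were not traced under the alternatives. Over all 101575 regions the main fit called 2484 higher and 3383 lower. Bounded edgeR called 265 and 731, summed peaks 433 and 1036, and DESeq2 11 and 34. Of 4 tested regions of the remaining liver alcohol dehydrogenases Adh6a and Adh6b, 0 passed (median log2 fold change 0.08). Of 91 regions near 16 other aldehyde dehydrogenase genes 0 rose and 1 fell (1.1%, against 3.33% of all regions), inside Aldh1a3, a retinaldehyde dehydrogenase (log2 fold change -0.76, edgeR adjusted p 0.00286), with a median of 0.02. That Aldh1a3 region averaged 12.6 ± 0.858 in B2_minus and 21.2 ± 4.08 in control with Ad_Cont, and 9.93 ± 1.65 and 16.9 ± 4.598 with Ad_Cre (SD, n = 3 each). Aldh3b3 had no tested region.

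Among 61 regions of ethanol and acetate genes 2 rose (3.28%, near the 2.45% of all regions) and 0 fell (median 0.06). They lay inside Acss3 (log2 fold change 0.64, edgeR adjusted p 0.00964) and Acss2 (0.38, 0.0253), whose products join acetate and other short acids to coenzyme A. A region inside Cat, the gene of catalase, which can oxidize ethanol in peroxisomes, fell in B2_minus with Ad_Cre (-0.90, edgeR adjusted p 0.0366) and had a log2 fold change of 0.21 with Ad_Cont.

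Of 205 regions of retinoid genes 7 rose (3.41%, against 2.45% of all regions) and 2 fell (0.976%, against 3.33%), with a median of 0.02. A pair in Rarb, a retinoic acid receptor, rose (0.63 and 0.26), as did a pair in Dhrs9, a retinol dehydrogenase (0.58 and 0.40), and regions in the aldehyde oxidases Aox1 (0.44) and Aox3 (0.37). The remaining rise, beyond the 6 genes named per list, was nearest to Rxra (0.24), a partner of retinoic acid receptors, and lay 49500 bp outside it. Regions in Lrat, which esterifies retinol for storage (-0.59), and beside Cyp26b1, which degrades retinoic acid (-0.44), fell, all by edgeR at an adjusted p between 0.00259 and 0.0468. Rdh12 had no tested region.

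Markers of the hepatocyte and of other liver cells were read in the same contrast, and their calls were likewise not traced under the alternatives. All 8 hepatocyte markers had tested regions, of which 7 of 93 rose (7.53%, against 2.45% of all regions) and 2 fell (2.15%, against 3.33%), with a median of 0.05. Their summed tags were 2633 to 2720.0 in B2_minus and 2569 to 2607 in control with Ad_Cont, and 2631 to 2693 and 2481 to 2539 with Ad_Cre. Of 23 stellate cell marker regions 0 rose and 3 fell (median -0.12), among them the Lrat region of the retinoid list, with sums of 544 to 569 in B2_minus and 607 to 643 in control with Ad_Cont, and 530.0 to 593 and 611 to 677 with Ad_Cre. Of 33 cholangiocyte marker regions 0 rose and 5 fell (15.2%; median -0.12), with sums of 904 to 954 in B2_minus and 974 to 1003 in control with Ad_Cont, and 890.0 to 920.0 in B2_minus and 947 to 1024 in control with Ad_Cre. Of 35 endothelial marker regions 3 rose (8.57%), a pair of them in Stab2 (1.05 and 0.81) and 1 lying 47266 bp outside Kdr (0.71). Only 1 fell, in Stab2 (-0.96, 2.86% of the 35), and the median was 0.01. Endothelial sums were 933 to 961 in B2_minus and 871 to 915 in control with Ad_Cont, and 960.0 to 982 in B2_minus and 883 to 917 in control with Ad_Cre. Among Kupffer cell markers only Csf1r had tested regions, 2 of them with 0 calls, while Clec4f, Adgre1, Cd5l, Timd4 and Vsig4 had none. The part of these shifts in the results for the 8 genes was not tested.

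As a description, the genes whose summed tags most resembled each of the 8 over the 12 libraries were found by Pearson r of log2 values among 16871 other genes. For Adh1 they were Zfp386 (r 0.875), Ostc (0.873) and Herc4 (0.871). For Adh4 they were Tmf1 (0.963), Uqcrb (0.943) and Sfpq (0.913), of which Tmf1 has 1 region and Uqcrb 2. For Adh5 they were Ptpn11 (0.929), Errfi1 (0.898) and Atcay (0.889). For Adh7 they were Ces1d (0.91), Slc4a1 (0.899) and Elovl7 (0.895).

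For Aldh2 the closest were Thtpa (0.884), Prf1 (0.84) and Prpf4 (0.834). For Aldh1a1 they were Syt1 (0.931), Akr1c14 (0.928) and Med21 (0.887). For Aldh1b1 they were Lrrc75b (0.873), Olfr649 (0.864) and Ubl7 (0.859). For Aldh3a2 they were Serpinc1 (0.904), Baat (0.892) and Cyp2c29 (0.891). Like Tmf1, the genes Zfp386, Atcay, Prf1, Prpf4, Olfr649 and Cyp2c29 had 1 region each. The 12 libraries share their scaling and their groups, and none of the 8 genes was among the closest 3 of another.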

How the data were processed

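ATAC-seq libraries of mouse hepatocytes (12, in 4 groups of 3 taken from the sample titles) were analysed, and 8 HepG2 libraries were not used. Bowtie2, HOMER and the builds hg38 and mm10 are named, without versions or roles, per the submitters' processing notes. Settings of the aligner, treatment of duplicates, shifting of reads, cutoffs of peaks and read totals are not given in the sources used. In the deposited file of a library each peak carried a count of tags, a whole number inferred from the values to be unscaled since the files had no header. The highest count listed per library was 315 to 350 tags. Peaks on chromosome Y or unplaced sequences (0.151%) were left out, and 0 value columns were unmapped.

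Genes, gene bodies and promoters came from RefSeq GRCm38.p6. Counts of the 101575 regions listed in all 12 libraries were fitted together with edgeR 4.0.16 in R 4.3.3 (TMM, glmQLFit with legacy set to FALSE, which lets the variance fall below Poisson), with 4 groups, 1 shared spread and Benjamini-Hochberg adjustment at 0.05. The same fit was run on tags summed per gene. Tables were made with Python 3.11.15 and pandas 2.3.3. Simulated counts with known changes, drawn with Poisson variance, were tested first. They cannot vouch for calls that rest on a variance below Poisson. Alternatives used DESeq2 1.42.0, limma 3.58.1 with a pseudocount of 1, other library sizes, filters and peak sums, a replicate block, and each library left out in turn.

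For each gene the text names its strongest region, the strongest at each gene end within 1 kb (1000 bp), every region past the threshold and the one with the largest averaged B2_minus against control difference. The 8 genes, the gene lists and the averaged contrasts were chosen with earlier results of these data known. Intervals and errors cover the spread between libraries, and the sequencing depth is unknown.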

Additional observations from a re-analysis of the deposited data

How the results depend on the processing

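Counts of called regions depended on the treatment of the counts. With Ad_Cont the 1 call became 0 with edgeR bounded at Poisson variance, with a peak in at least 3 libraries, with summed peaks and in DESeq2. Over all regions these called 7, 15, 14 and 0 higher and 10, 12, 16 and 0 lower. With Ad_Cre the count of 1, which is the Adh4 region known beforehand and no independent result, became 0 under those 4 alternatives. It became 7 with library sizes from listed tags, the Adh4 region among them. Those sizes called 4077 higher and 482 lower of all 101575 regions with Ad_Cre. Averaged over both arms the 8 calls became 13 with library sizes from listed tags (13 higher and 0 lower, 7 of them shared), 5 with a peak in at least 3 libraries (3 shared), and 0 with bounded edgeR, sums of peaks and DESeq2. Per gene, the averaged count of 2 became 6 with library sizes from listed tags, where 5628 higher and 314 lower of all 16872 genes passed. The Ad_Cre count of 1 became 6 with those sizes, where 4874 higher and 130 lower passed. With regions within 10 kb it became 2, where 190 higher and 363 lower of 16405 genes passed. The sizes from listed tags moved the median log2 fold change of all genes to 0.104 averaged and 0.14 with Ad_Cre, so the 6 are a description. Both gene counts became 0 with bounded edgeR, summed peaks and DESeq2, which were added for gene sums after seeing the data. With only peaks of at least 10 tags, 128 of 190 regions were not listed in every library, against 317 of 398. Leaving out 1 library at a time gave 0 to 1 calls with Ad_Cont, 0 to 1 with Ad_Cre, 3 to 7 averaged, 0 in each Ad contrast and in the interaction, and per gene 0 to 2 averaged, 0 with Ad_Cont, 0 to 1 with Ad_Cre and 0 in the averaged Ad contrast. Same-numbered libraries did not deviate together (18 pairs, r -0.016 to 0.012), and with the replicate block the counts stayed at 8, 1 and 1 per region and 2, 0 and 1 per gene. Leaving the Adh4 region aside, of 72 alternative values of the 9 differences called at regions 35 kept their side of the threshold, 37 lost it and 0 reversed, and of 21 values of the 3 called gene sums 12 kept it, 9 lost it and 0 reversed. The causes were not tested. Values below the lowest listed count of 6 to 8 tags are missing, which limits what can be seen at weak regions such as those of Adh4.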
